A study of Mus musculus with 6 samples.

Results

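The genes described here were the lactate transporters and lactate dehydrogenases of mouse subcutaneous tumors, chosen by symbol. They were 3 plasma membrane monocarboxylate transporters (Slc16a1, Slc16a3 and Slc16a7, which encode MCT1, MCT4 and MCT2), their chaperones Bsg and Emb, and the lactate dehydrogenase subunit genes Ldha and Ldhb. All 7 were found once each among the 22623 genes of the 6 matrices. RNA of single nuclei (snRNA-seq) was measured from frozen whole tumors, which had been grown for 24 days from TC1 cells, a mouse lung tumor line, implanted under the skin of the flank. The 3 MCT2 KO libraries came from MCT2 loxP/loxP; Cre+ mice that received tamoxifen on 5 consecutive days from 8 weeks of age, and the 3 MCT2 CO libraries came from mice of the same genotype given vehicle without tamoxifen. All mice received the tumor cells 2 days after dosing. The Cre was tamoxifen-inducible and acted in the host, so every group carried the floxed allele in its host cells, and the implanted TC1 cells did not carry it. The study's methods call the libraries of a group biological replicates, and no label ties them to animals. The p-values measure the spread between these libraries.

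Monocarboxylate transporters move lactate or pyruvate across the plasma membrane together with a proton, in the direction set by the gradients. MCT1 and MCT4 reach the membrane bound to basigin, the product of Bsg, and MCT2 is best known as a partner of embigin, the product of Emb. Lactate dehydrogenase is a tetramer of A and B subunits that interconverts pyruvate and lactate, and a tumor that runs on glycolysis exports much of the lactate that its Ldha-rich enzyme forms.

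The 6 libraries held 18865 barcodes together and 13252572 to 22057084 UMIs each, a UMI being a tag that marks 1 captured RNA molecule. After filters, 17493 nuclei remained, 1761 to 4581 per library. Any 2 libraries shared 19 to 25 barcodes. Each nucleus was classed by its UMIs of fixed marker lists, which held none of the 7 genes. This gave 9213 tumor-like, 4983 macrophage-like, 437 T/NK-like and 48 endothelial-like nuclei, while 6.82% had mixed markers and 7.29% too few markers. These classes are ranges of a marker share rather than separate types, and 1453 nuclei (8.31%) lay within 0.05 of the cut at a share of 0.5. All 15 tumor markers, 20 macrophage markers, 20 T/NK markers and 17 endothelial markers had UMIs in their own class. The same lists set the classes, so this does not check them. Tumor-like nuclei also had UMIs of all 20 macrophage, 20 T/NK and 17 endothelial markers. Markers of other classes were also present: in macrophage-like nuclei the median nucleus had 71.0 macrophage and 7.78 tumor marker UMIs per 10000 UMIs, and in tumor-like nuclei it had 136 tumor and 4.09 macrophage marker UMIs. Endothelial-like nuclei numbered 3 to 11 per library and held a median of 42.1 tumor marker UMIs per 10000, so under the marker rule their values are given without a test.

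Levels below are counts per 1000000 UMIs (CPM) of a gene in the sum of a class in a library. They compare 1 gene between classes or libraries. They are not corrected for the length of a gene, so they do not rank the genes against each other. On build GRCm38, Slc16a7 lies at chr10:125219270-125389465 on the minus strand and spans 170 kb, against 7.48 kb for Bsg (chr10:79704491-79711969, plus strand). Slc16a1 (chr3:104638668-104658462, plus), Slc16a3 (chr11:120948480-120960868, plus), Ldha (chr7:46841475-46855627, plus) and Ldhb (chr6:142490249-142507957, minus) span 12.4 to 19.8 kb, and Emb (chr13:117208536-117274415, plus) spans 65.9 kb. Counts are per gene, and which exons of Slc16a7 are flanked by loxP sites was not given in the sources used here. UMIs of Slc16a7 outside a deleted stretch would still be counted, so its level does not check the deletion.

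Slc16a7, the targeted gene, was expressed in macrophage-like nuclei of every library, CO and KO. In CO its macrophage level was 94.4 CPM in replicate 1, 91.6 CPM in replicate 2 and 177 CPM in replicate 3. In KO it was 123, 150.4 and 169 CPM, from 220, 52 and 226 UMIs. The groups overlapped, and the highest value was in a library labelled CO. The CO mean was 121 ± 48.3 CPM and the KO mean 147 ± 23.1 CPM (SD, 3 libraries per group), and edgeR's quasi-likelihood test gave a log2 fold change of 0.32 (SE 0.30, adjusted p = 0.842). An approximate 95% interval of that difference ran from -0.27 to 0.91, so the level in the libraries labelled KO was not shown to be lower or higher. Summed tumor markers in the macrophage-like nuclei stood at 622, 601 and 994 CPM in CO and at 631, 2427 and 2410.5 CPM in KO, and their part in this and the other macrophage-like values was not tested. A gene was called where its absolute log2 fold change was at least 0.58 and its Benjamini-Hochberg adjusted p at most 0.05. By that rule 0 of 7 members were called between KO and CO macrophage-like nuclei, beside 0.0% of all 9840 genes tested, of which 531 (5.4%) had an unadjusted p under 0.05 and 9 (0.0915%) were called by DESeq2.

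Slc16a7 was high in 1 class. Its macrophage-like level averaged 134 ± 36.8 CPM over the 6 libraries (range 91.6 to 177), its T/NK-like level 12.4 ± 12.01 CPM (0 to 27.4) and its tumor-like level 2.57 ± 1.69 CPM (1.14 to 5.77). Macrophage-like nuclei held 72.4% of all Slc16a7 UMIs but 8.24% of all UMIs, and tumor-like nuclei held 13.9% and 84.6%. The level was higher in macrophage-like than in tumor-like nuclei in 6 of 6 libraries, by a log2 fold change of 5.69 (SE 0.17, adjusted p = 1.34e-21), that is 51.6-fold. It was lower in T/NK-like than in macrophage-like nuclei by 3.75 on the log2 scale (SE 0.42, adjusted p = 3.13e-08). Between T/NK-like and tumor-like nuclei the log2 fold change was 1.94 (SE 0.79, adjusted p = 0.0501), just outside the threshold, and DESeq2 gave 2.08 with adjusted p = 0.00681 and RLE factors 2.07 with adjusted p = 0.0388. Without CO replicate 2 or 3 that difference passed, with log2 fold changes of 2.18 and 2.32, as it did with classes from clusters (2.59). It was called in only 6 of 14 alternatives, and the largest adjusted p among them was 0.148. Without KO replicate 1 it was not called (2.14, adjusted p = 0.0677).

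The tumor-like level of Slc16a7 was under the level that macrophage markers reached in the same nuclei. It was 1.24% to 3.42% of the macrophage-like level of the same library, whereas the summed macrophage markers stood in tumor-like nuclei at 5.56% to 9.36% of their macrophage-like level. These markers also set the classes, so their percentages depend on the class rule, which Slc16a7 does not enter. In T/NK-like nuclei Slc16a7 stood at 0% to 18.2% of the macrophage-like level, from 6 UMIs in all, and the macrophage markers at 6.59% to 16.4%. It stood above the markers in KO replicate 2 (18.2% against 6.59%, from 1 UMI) and KO replicate 3 (15.2% against 12.9%, from 3 UMIs) and under them in the other 4 libraries. Of nuclei thinned to 1000 UMIs, 11.4% ± 2.49 of the macrophage-like, 2.50% ± 2.83 of the T/NK-like and 0.413% ± 0.419 of the tumor-like nuclei had a Slc16a7 UMI (SD, n = 6 libraries). Unthinned, the shares were 14.4%, 1.47% and 1.55%, at median depths of 1082 to 1266 UMIs in macrophage-like, 920.5 to 1009 in T/NK-like and 2277 to 7304 in tumor-like nuclei.

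Within the tumor-like nuclei Slc16a7 was listed at 1.17, 1.14 and 2.53 CPM in CO and at 2.27, 2.57 and 5.77 CPM in the KO libraries. The KO values leaned higher, with 1 CO library above 1 KO library. The log2 fold change was 1.22 (SE 0.51, unadjusted p = 0.0455, adjusted p = 0.591). Macrophage markers in the same nuclei summed to 443, 441 and 446 CPM in CO and to 641, 412 and 566 CPM in KO, and their part in the difference was not tested. Of the members, 0 of 7 were called between KO and CO tumor-like nuclei, beside 0.0% of 13103 genes, of which 840 (6.41%) had an unadjusted p under 0.05 and 25 (0.191%) were called by DESeq2.

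**Figure D1:**
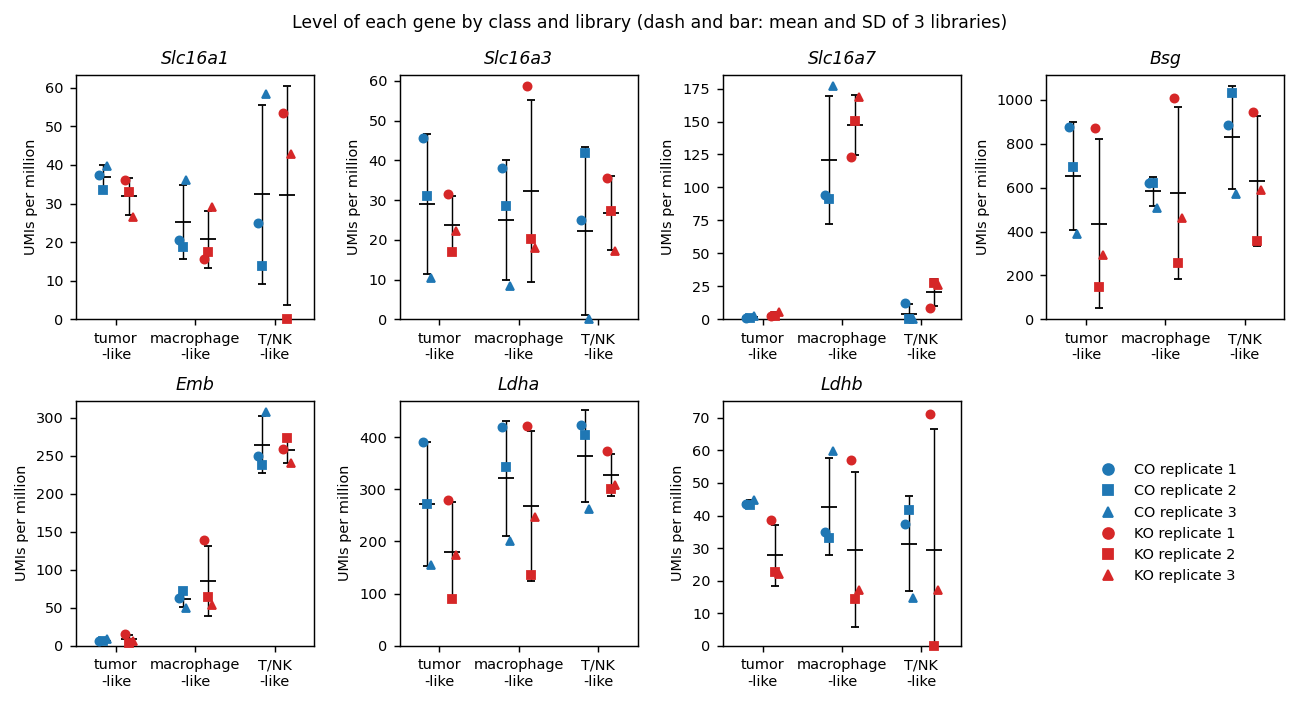
Level of each gene in CPM (y axis) in the tumor-like, macrophage-like and T/NK-like nuclei (x axis), 1 point per library, CO in blue and KO in red, with the mean and SD of 3 libraries. Slc16a7 stands at 91.6 to 177 CPM in macrophage-like nuclei and at most 27.4 CPM in the other classes, and Emb is highest in T/NK-like nuclei at 237 to 307 CPM.

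Macrophage-like nuclei fell into several groups when clustered without the 7 genes, and Slc16a7 was present in each. In the cluster led by the monocyte and antigen presentation genes Lyz2, Cd74 and H2-Ab1 it stood at 99.6 CPM (95% exact Poisson interval 84.7 to 116, counting error only, 1690 nuclei). In the cluster led by the scavenger receptor gene Stab1 with Clec4n and Mrc1, the mannose receptor gene, it stood at 118 CPM (103 to 135). In the interferon response cluster led by Gbp5 and Oas3 it stood at 123 CPM (96.2 to 155), and in the cluster led by Klra17, Negr1 and Sirpb1a it stood at 150.0 CPM (136 to 165). Some other members varied more between these clusters. Slc16a3 ranged from 17.1 CPM in the Klra17 cluster to 60.7 CPM in the Lyz2 cluster, Ldhb from 21.0 to 61.4 CPM and Emb from 47.4 to 143 CPM in the same clusters. The Lyz2 cluster was 722 of 1690 nuclei from KO replicate 1 and the Klra17 cluster 774 of 1615 from KO replicate 3, so cluster and library move together in these values.

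Small classes gave few UMIs of Slc16a7. The 49 adipocyte-marked nuclei held 4 UMIs, which is 83.4 CPM with an exact Poisson interval of 22.7 to 214 CPM, and no Emb UMI. The 184 nuclei classed as fibroblast or mural held none among 832442 UMIs, with an exact Poisson interval up to 4.43 CPM (a floor of 3 UMIs is 3.60 CPM). Dkk2, a marker of that class, was also a leading gene of a cluster with mostly tumor markers. Whether tumor nuclei are in the class was not tested. The endothelial-like nuclei held none among 102477 UMIs, with an exact Poisson interval up to 36.0 CPM (a floor of 3 UMIs is 29.3 CPM), which is under the macrophage-like level. Taken from clusters instead, endothelial-like nuclei numbered 181, 12 to 72 per library, and held 10 UMIs of Slc16a7 (11.2 CPM, interval 5.36 to 20.6). In that fit Slc16a7 was called higher than in tumor-like nuclei (log2 fold change 1.962, SE 0.64, adjusted p = 0.0349) and lower than in macrophage-like nuclei (-3.79, SE 0.38). Slc16a1 was called lower than in tumor-like nuclei (-1.14, SE 0.35, adjusted p = 0.0236), and Emb (-3.04, SE 0.47) and Ldha (-0.62, SE 0.19) lower than in macrophage-like nuclei. Of 10443 genes, 9.12% were called higher and 4.78% lower against tumor-like nuclei, and 19.8% higher and 21.5% lower against macrophage-like nuclei. The tumor-like class of that fit left out an unnamed cluster of 1724 nuclei with mostly tumor markers, where Slc16a1 stood at 26.9 CPM. It held 449 nuclei of KO replicate 2 in place of 1449. The endothelial cluster was named by enrichment, with no marker list above 35.3% of its weighted marker rate. The part of RNA of other classes in its values was not tested. Pooled over libraries, the 48 endothelial-like nuclei of the marker rule held 45 UMIs of Bsg (439 CPM, exact Poisson interval 320.3 to 588) and 18 of Ldha (176 CPM, 104 to 278). They held 4 UMIs each of Slc16a3 and Ldhb, 2 of Slc16a1 and 1 of Emb. All intervals and floors cover counting error only.

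Slc16a1, which encodes the broadly expressed transporter MCT1, was the member that varied least between libraries in tumor-like nuclei. Its tumor level was 37.4, 33.6 and 39.7 CPM in CO and 36.0, 33.1 and 26.5 CPM in KO. Its macrophage level was 20.4, 18.8 and 36.2 CPM in CO and 15.6, 17.4 and 29.1 CPM in the KO libraries. The groups overlapped in both classes, and the log2 fold changes were -0.14 (SE 0.18, adjusted p = 0.702) and -0.19 (SE 0.40, adjusted p = 0.910). Macrophage-like nuclei held less Slc16a1 than tumor-like nuclei by 0.66 on the log2 scale (SE 0.18, adjusted p = 0.00169), lower in 5 of 6 libraries. This call was lost without CO replicate 2 (-0.48), without KO replicate 1 (-0.38, adjusted p = 0.0779) and with a stricter filter on nuclei (-0.47). T/NK-like nuclei held 18 UMIs in all, 32.3 ± 23.1 CPM.

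Slc16a3 encodes MCT4, a transporter typical of glycolytic cells. Its tumor level was 45.7, 30.9 and 10.4 CPM in CO and 31.7, 16.9 and 22.3 CPM in KO. Its macrophage level was 38.0, 28.5 and 8.34 CPM in CO and 58.7, 20.2 and 17.9 CPM in KO. CO replicate 3 was lowest in both classes, and the level differed 4.38-fold between the highest and lowest library in tumor-like and 7.03-fold in macrophage-like nuclei. KO against CO the log2 fold change was -0.27 (SE 0.49, adjusted p = 0.797) in tumor-like and 0.43 (SE 0.54, adjusted p = 0.862) in macrophage-like nuclei. Macrophage-like and tumor-like nuclei did not pass the test for a difference (log2 fold change 0.06, SE 0.16, adjusted p = 0.757).

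Bsg, the chaperone of MCT1 and MCT4, had a UMI in 81.2% ± 12.97 of tumor-like and 50.8% ± 11.5 of macrophage-like nuclei (SD, n = 6 libraries). Thinned to 1000 UMIs, these shares were 38.2% and 39.3%. Its tumor level was 878, 693 and 389.7 CPM in CO and 870.4, 146 and 293 CPM in KO. Its macrophage level was 623, 619.9 and 508 CPM in CO and 1009.9, 255 and 462 CPM in KO, and its T/NK level was 884, 1032 and 569.8 CPM in CO and 945, 356 and 591 CPM in KO. KO replicate 2 was lowest in all 3 classes. KO against CO the log2 fold change was -0.56 (SE 0.62, adjusted p = 0.669) in tumor-like, -0.0023 (SE 0.40, adjusted p = 0.999) in macrophage-like and -0.36 (SE 0.41, adjusted p = 0.933) in T/NK-like nuclei. Without KO replicate 1 the tumor-like value was -1.52 (SE 0.42, adjusted p = 0.0491) and was called, where 16.7% of 13244 genes were (11.7% lower). Between classes Bsg passed in none of the 3 comparisons, with log2 fold changes of 0.16 (macrophage-like against tumor-like), 0.24 (T/NK-like against tumor-like) and 0.08 (T/NK-like against macrophage-like).

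Emb, a partner of MCT2, was graded over the classes. Its T/NK level was 249, 237 and 307 CPM in CO and 258, 274 and 239.9 CPM in KO. Its macrophage level was 62.3, 72.0 and 50.1 CPM in CO and 139, 63.6 and 53.8 CPM in the KO libraries. The tumor level was 5.79, 5.78 and 8.69 CPM in CO and 15.0, 3.88 and 6.81 CPM in KO. Over the 6 libraries the levels of the 3 classes did not overlap. T/NK-like nuclei exceeded tumor-like nuclei by 4.80 on the log2 scale (SE 0.24, adjusted p = 3.00e-16) and macrophage-like nuclei by 1.57 (SE 0.21, adjusted p = 5.51e-07), and macrophage-like exceeded tumor-like nuclei by 3.23 (SE 0.16, adjusted p = 3.81e-17). With T/NK-like nuclei taken from clusters, the difference from macrophage-like nuclei was 0.15 (adjusted p = 0.559) and was not called. The tumor-like level was 6.10% to 17.4% of the macrophage-like level, against 5.56% to 9.36% for the macrophage markers. The latter percentages depend on the class rule, which uses those markers and not Emb. Emb was detected in 19.5% ± 6.42 of thinned T/NK-like, 7.20% ± 3.69 of macrophage-like and 0.871% ± 0.406 of tumor-like nuclei (SD, n = 6).

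KO against CO, Emb had log2 fold changes of 0.51 (SE 0.34, adjusted p = 0.832) in macrophage-like, 0.40 (SE 0.47, adjusted p = 0.686) in tumor-like and -0.07 (SE 0.31, adjusted p = 0.982) in T/NK-like nuclei. The first 2 rested on KO replicate 1, without which they were -0.09 and -0.26. In the T/NK-like class 0 of the 3 members that could be tested (Ldha, Bsg and Emb) were called, beside 0.0% of 2029 genes, of which 105 (5.17%) had an unadjusted p under 0.05 and 1 (0.0493%) was called by DESeq2.

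Counted over the 7 members, in macrophage-like against tumor-like nuclei 2 of 7 were called higher and 1 lower, where 23.7% and 28.8% of 11593 genes were (52.4% in all). In T/NK-like against tumor-like nuclei 1 was called higher and 0 lower, where 14.7% and 24.0% of genes were (38.6% in all). In T/NK-like against macrophage-like nuclei 1 was called higher and 1 lower, where 8.14% and 14.7% of genes were (22.8% in all). The median log2 fold changes of the 7 members were 0.16, 0.24 and -0.02, beside -0.07, -0.25 and -0.15 over all genes tested. In either direction 3, 1 and 2 of 7 members were called, and with 7 members no such count is read as particular to them.

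Ldha encodes the A subunit, the form that favors lactate in glycolytic tissue. Its tumor level was 391, 271 and 154 CPM in CO and 278, 88.9 and 174 CPM in KO. Its macrophage level was 419, 343 and 200.3 CPM in CO and 421, 136 and 246 CPM in KO. KO replicate 2 was lowest in both classes, and CO replicate 1, CO replicate 2 and KO replicate 1 were the 3 highest libraries in both. The groups overlapped. KO against CO the log2 fold change was -0.56 (SE 0.46, adjusted p = 0.599) in tumor-like and -0.22 (SE 0.38, adjusted p = 0.893) in macrophage-like nuclei. In T/NK-like nuclei it was -0.16 (SE 0.33, adjusted p = 0.954), from 423, 404 and 263 CPM in CO and 374, 301 and 308 CPM in KO.

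Macrophage-like nuclei held more Ldha than tumor-like nuclei of the same library in 6 of 6 libraries, with a log2 fold change of 0.36 (SE 0.11, adjusted p = 0.00456), which is under the fold limit and was not called. Among clusters named tumor, Ldha ranged from 211 CPM (interval 202 to 219.7, counting error only) in the cluster led by Frmd5 and Gpm6b to 881 CPM (interval 843 to 921) in a cluster of 240 nuclei led by Msln, Crabp1 and Pthlh, where Bsg stood at 1538 CPM and Ldhb at 76.0 CPM. The cluster of 240 nuclei came from CO replicates 1 and 2 and KO replicate 1 alone but for 3 nuclei. Those libraries were the ones with the highest Ldha, at 391, 271 and 278 CPM over all their tumor-like nuclei, and the cluster stood at 707 to 960 CPM within each of them. An unnamed cluster of 1724 nuclei with mostly tumor markers, 972 of them from KO replicate 2, stood at 113 CPM.

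Ldhb encodes the B subunit, which is typical of tissues that take up lactate. Its tumor level was 43.7, 43.1 and 44.7 CPM in CO and 38.7, 22.5 and 22.04 CPM in KO. All 3 KO libraries lay below all 3 CO libraries, the only such member of 7, where the KO libraries lay below the CO libraries for 7.4% of the 13103 genes tested (12.6% did not overlap in either direction). No member was without overlap in macrophage-like nuclei, where 11.6% of genes were, nor among Ldha, Bsg and Emb in the T/NK-like class, where 13.1% were. In tumor-like nuclei the CO mean was 43.8 ± 0.811 CPM and the KO mean 27.8 ± 9.46 CPM (SD, 3 libraries per group), and the log2 fold change was -0.60 (SE 0.23, unadjusted p = 0.0331, adjusted p = 0.591). In macrophage-like nuclei the levels were 35.1, 33.0 and 59.8 CPM in CO and 57.0, 14.5 and 17.2 CPM in the KO libraries, the groups overlapped, and the log2 fold change was -0.36 (SE 0.47, adjusted p = 0.868). Without KO replicate 1 Ldhb was called lower in both classes, by 0.89 on the log2 scale in tumor-like (SE 0.14, adjusted p = 0.0331) and by 1.27 in macrophage-like nuclei (SE 0.37, adjusted p = 0.0247). Without that library 16.7% of 13244 genes (11.7% lower) and 18.9% of 9772 genes (10.5% lower) were called in these 2 comparisons.

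**Figure D2:**
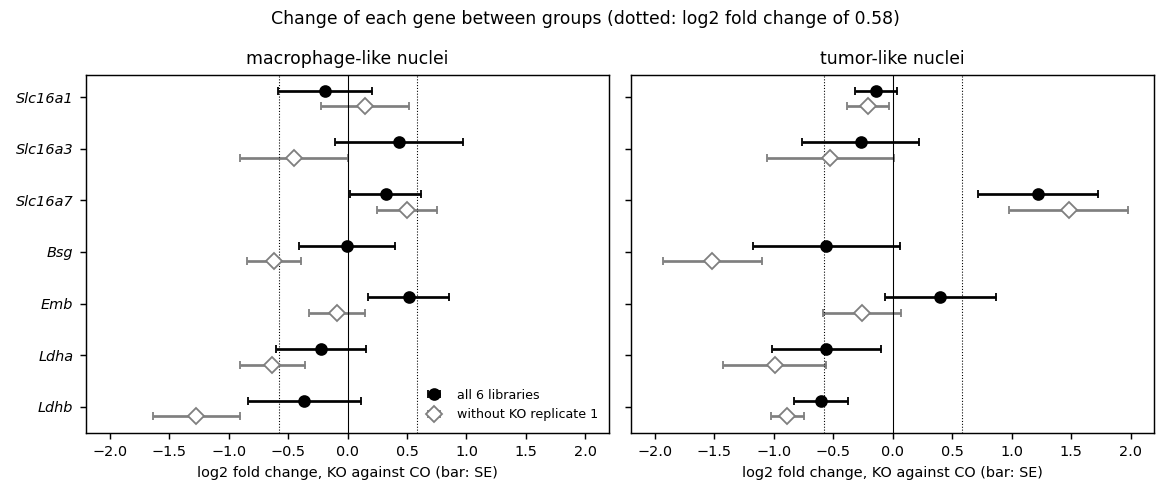
Log2 fold change of each gene, KO against CO (x axis, bars are the SE of the fit), in macrophage-like and tumor-like nuclei, with all 6 libraries (filled) and without KO replicate 1 (open). The values of Bsg, Ldha and Ldhb move to lower values without that library, Ldhb in macrophage-like nuclei from -0.36 to -1.27, and Slc16a7 stays above 0 in both classes.

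The change in macrophage-like nuclei minus that in tumor-like nuclei was tested in 1 fit, which called 0 of 7 members, beside 0.00778% of 12860 genes (1 gene, Peli2, named after its value was seen). An unadjusted p under 0.05 was found for 842 genes (6.55%), and 3 (0.0233%) passed with DESeq2. The members with an unadjusted p under 0.05 in it were Slc16a7, with a difference in log2 fold change of -0.78 (SE 0.30, adjusted p = 0.670), Bsg with 0.65 (SE 0.26, adjusted p = 0.678) and Slc16a3 with 0.66 (SE 0.30, adjusted p = 0.753).

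The isozyme makeup was compared as the Ldhb share of Ldha and Ldhb UMIs, and the transporter makeup as the Slc16a7 share of Slc16a1, Slc16a3 and Slc16a7 UMIs. The Ldhb share in tumor-like nuclei was 10.0%, 13.7% and 22.5% for CO and 12.2%, 20.2% and 11.2% for KO. In macrophage-like nuclei it was 7.73%, 8.78% and 23.0% for CO and 11.9%, 9.62% and 6.52% for KO. CO replicate 3 was highest in both classes and the groups overlapped. The KO minus CO differences were -0.867 and -3.82 percentage points (exact permutation test, two-sided, p = 0.7 for each). The Slc16a7 share in macrophage-like nuclei was 61.8%, 65.9% and 79.9% for CO and 62.3%, 80.0% and 78.2% for KO, so Slc16a7 UMIs were the larger part in every library. In tumor-like nuclei it was 1.39%, 1.74% and 4.80% for CO and 3.24%, 4.88% and 10.6% for KO. The differences were 4.31 points (exact permutation p = 0.7) and 3.59 points (p = 0.2). Adjusted over these 4 tests all p-values were 0.7, and 3 against 3 libraries cannot go below 0.1. A share of UMIs rests on how each gene's message is captured and is not a share of protein.

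**Figure D3:**
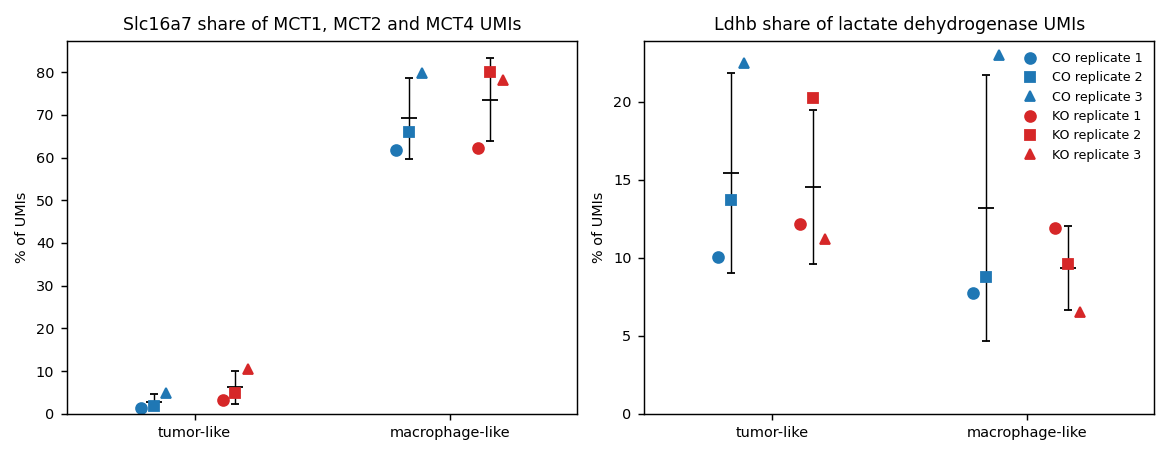
Share of UMIs in percent (y axis) taken by Slc16a7 among Slc16a1, Slc16a3 and Slc16a7 (left) and by Ldhb among Ldha and Ldhb (right), in tumor-like and macrophage-like nuclei, 1 point per library with the mean and SD of 3 libraries. The Slc16a7 share is 61.8% to 80.0% in macrophage-like and 1.39% to 10.6% in tumor-like nuclei, and the groups overlap in every panel.

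The share of nuclei with a UMI was compared between KO and CO after thinning, for 7 genes in 3 classes. Over these 21 exact two-sided permutation tests the smallest p was 0.1, the smallest that the design allows, for Ldha in T/NK-like nuclei, and every adjusted p was 1.0. Bsg was detected in 43.2% ± 10.7 of CO and 33.3% ± 21.2 of KO thinned tumor-like nuclei (SD, n = 3, exact permutation p = 0.5). Slc16a7 was detected in 11.6% ± 3.63 of CO and 11.3% ± 1.49 of KO thinned macrophage-like nuclei (exact permutation p = 0.8). Thinning left out 782 of 9213 tumor-like, 1894 of 4983 macrophage-like and 236 of 437 T/NK-like nuclei as too shallow.

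Ldha, Bsg and Slc16a3 had the same 3 highest libraries in tumor-like and in macrophage-like nuclei, CO replicates 1 and 2 and KO replicate 1. Ribosomal protein messages were highest in the same 3 libraries. They made up 1.37%, 1.13% and 0.772% of tumor-like UMIs in CO and 1.30%, 0.288% and 0.546% in KO, and 1.73%, 1.73% and 1.35% of macrophage-like UMIs in CO and 2.14%, 0.485% and 1.00% in KO. Mitochondrial transcripts made up 9.94%, 9.18% and 6.09% of tumor-like UMIs in CO and 9.71%, 5.64% and 5.69% in KO. In tumor-like nuclei those 3 libraries also had the highest mitochondrial shares, and KO replicate 2, with the lowest Bsg and Ldha, had the lowest share of both. Whether cytoplasmic RNA left with the nuclei has a part in these levels was not tested. Slc16a3 was lowest in CO replicate 3 in both classes instead. Slc16a7 was lowest in the same 3 libraries in both classes, at 91.6 to 123 CPM against 150.4 to 177 in macrophage-like and at 1.14 to 2.27 CPM against 2.53 to 5.77 in tumor-like nuclei.

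**Figure D4:**
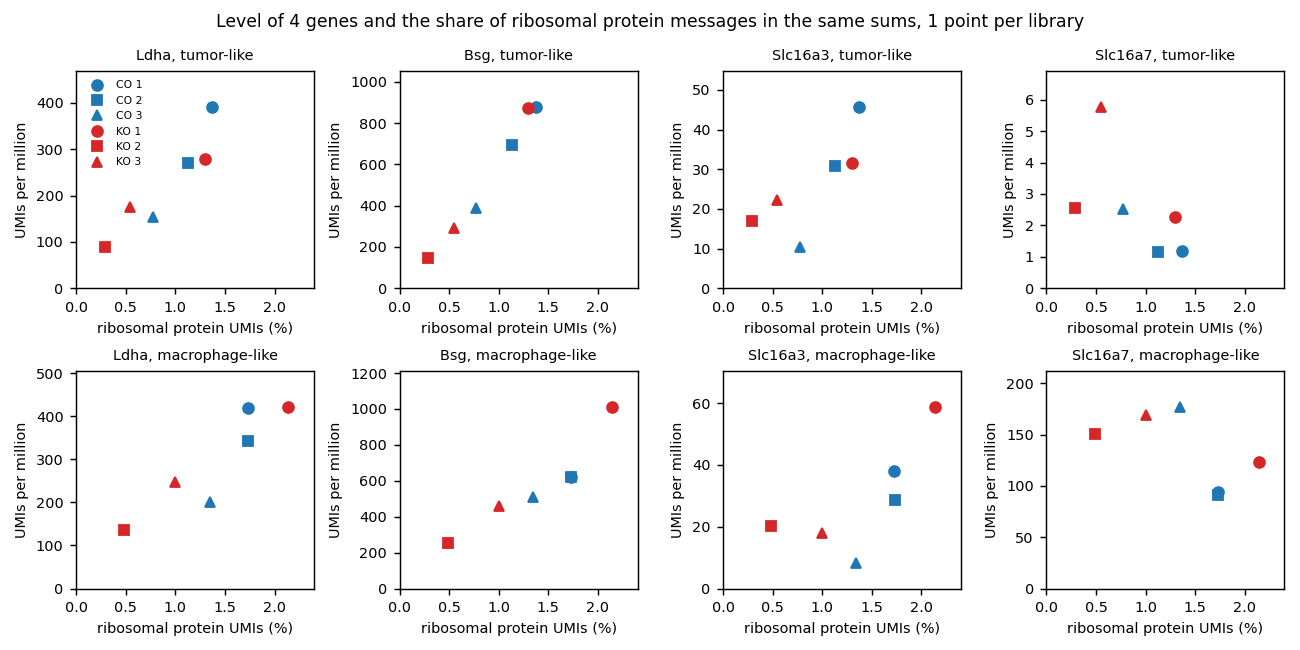
Level of Ldha, Bsg, Slc16a3 and Slc16a7 in CPM (y axis) against the percent of UMIs from ribosomal protein genes in the same nuclei (x axis), 1 point per library, tumor-like in the upper and macrophage-like in the lower panels. Bsg runs from 146 CPM at 0.288% to 878 CPM at 1.37% in tumor-like nuclei, while Slc16a7 in macrophage-like nuclei is highest, at 177 CPM, at 1.35%.

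The genes whose pattern was most like each member were sought over the 18 class by library sums, among 8241 genes with a mean of at least 20 CPM, as a description on the log2(CPM + 1) scale. Points of 1 library share its handling and depth, and classes differ in depth. The T/NK-like sums were small, with 3 UMIs equal to 25.7 to 82.1 CPM. Slc16a1, Slc16a3, Slc16a7 and Ldhb each had 0 UMIs in at least 1 of them, so a high r of these genes can rest on such sums. Slc16a7 was most like Cadm1 (Pearson r = 0.976), a cell adhesion gene, Tnfsf13b (0.973), which encodes the B cell factor BAFF, and Atp2c1 (0.946), a Golgi calcium pump gene. Emb was most like Sema4a (0.977), Ctse (0.976) and Nipal3 (0.976). Ldha was most like Aldoa (0.955), a glycolytic aldolase gene, Rps20 (0.949), a ribosomal protein gene, and Mif (0.947), and Bsg was most like Eif5a (0.962), Lamp1 (0.959) and Rpl18 (0.958). Slc16a3 was most like Malsu1 (0.918), Exosc7 (0.914) and Agpat2 (0.910), Slc16a1 most like Cdc25a (0.958), Zw10 (0.954) and Zbtb43 (0.949), and Ldhb most like Nsmce1 (0.969), Mrps18a (0.957) and Cog8 (0.953). Among the members themselves, Bsg and Ldha were the most alike pair (r = 0.897), followed by Slc16a1 and Ldhb (0.772), while Slc16a7 and Emb gave 0.271. In T/NK-like nuclei, Slc16a1 and Ldhb both had 0 UMIs in KO replicate 2, and Slc16a7 had 0 in CO replicates 2 and 3. The part of these sums in the values of r was not tested.

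The promoters of Ldha and Slc16a3, which shared their 3 highest libraries, and of Slc16a1, which did not, are shown. They are the 250 bases before the RefSeq start on GRCm38.p6, 5′ to 3′ on the strand of the gene, with matches to ACGTG or its reverse complement CACGT in capitals. ACGTG is a form of the core of the sequence bound by hypoxia-inducible factors and lies within CACGTG, the E-box of MYC and related factors. Other forms of that core were not sought. ACGTG on either strand was in 16.6% of 32851 RefSeq promoter windows of this length, and CACGTG in 6.02%.
Ldha, chr7:46845554-46845803, plus strand: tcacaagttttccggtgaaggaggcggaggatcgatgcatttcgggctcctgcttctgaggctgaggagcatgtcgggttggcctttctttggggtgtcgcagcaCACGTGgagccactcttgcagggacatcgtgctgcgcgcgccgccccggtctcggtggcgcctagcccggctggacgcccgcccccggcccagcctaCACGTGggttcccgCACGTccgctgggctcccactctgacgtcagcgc
Slc16a3, chr11:120948817-120949066, plus strand: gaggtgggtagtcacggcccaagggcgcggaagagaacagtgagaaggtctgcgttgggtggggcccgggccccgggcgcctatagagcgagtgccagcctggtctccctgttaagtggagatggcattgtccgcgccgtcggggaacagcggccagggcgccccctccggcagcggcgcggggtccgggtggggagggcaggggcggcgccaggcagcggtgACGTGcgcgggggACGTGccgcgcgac
Slc16a1, chr3:104638414-104638663, plus strand: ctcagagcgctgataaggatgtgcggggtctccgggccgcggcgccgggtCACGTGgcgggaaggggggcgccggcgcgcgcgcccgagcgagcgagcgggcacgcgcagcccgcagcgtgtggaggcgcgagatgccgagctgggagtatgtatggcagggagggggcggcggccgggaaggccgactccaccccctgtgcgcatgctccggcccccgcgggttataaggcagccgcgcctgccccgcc

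The Ldha window held 5 matches counted on both strands, in 3 runs, with 2 copies of CACGTG, which counts as a match on each strand. The Slc16a3 window held 2 matches and no CACGTG, and the Slc16a1 window held 1 copy of CACGTG, counted on both strands. A second RefSeq start of Ldha and the windows of Ldhb and Emb held no match to ACGTG on either strand. All 3 windows shown held the letters, that of Slc16a1 included. Matches describe the windows only. Slc16a7 and Bsg had no entry.

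Other genes of lactate and pyruvate handling were taken from lists. In macrophage-like against tumor-like nuclei, of 5 tested among 13 other carriers of monocarboxylates and their relatives, 2 were called higher and 2 lower, beside 23.7% and 28.8% of all genes. Slc16a6 (MCT7) was higher, at 125 ± 24.9 against 4.90 ± 1.15 CPM (log2 fold change 4.60, SE 0.15, adjusted p = 5.54e-21), and Slc16a4 (MCT5) was lower, at 7.89 ± 5.68 against 32.4 ± 14.9 CPM (-1.98, SE 0.22). Of 10 tested genes of proton handling and lactate sensing, 3 were called higher and 2 lower beside the same shares, led by the proton-sensing receptor genes Gpr65 (37.8 against 1.12 CPM, log2 fold change 5.02, SE 0.25) and Gpr132 (88.3 against 2.94 CPM, 4.85, SE 0.16). Car9, a carbonic anhydrase gene, was also called higher (1.97, SE 0.31), from 10.2 against 2.60 CPM.

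Other uses of pyruvate were also compared between these classes. Of 12 tested genes of pyruvate entry and pyruvate dehydrogenase 1 was called higher and 3 lower, and of 5 other enzymes of lactate or pyruvate 0 were called higher and 3 lower, beside 23.7% and 28.8% of all genes. Me1, a malic enzyme gene, stood at 12.04 ± 7.36 against 58.7 ± 11.2 CPM (log2 fold change -2.17, SE 0.22), Pdp1, a pyruvate dehydrogenase phosphatase gene, at 13.5 against 36.7 CPM (-1.64, SE 0.20), and Pcx, the pyruvate carboxylase gene, at 8.13 against 24.6 CPM (-1.55, SE 0.22). The list medians were -0.06 and -0.84, beside -0.07 over all genes.

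T/NK-like nuclei shared some of these differences from tumor-like nuclei. Gpr132 stood at 112 ± 44.4 CPM (log2 fold change 4.89, SE 0.33), Gpr65 at 19.5 CPM (3.70, SE 0.70) and Slc16a6 at 60.6 ± 38.4 CPM (3.35, SE 0.41), and 5 of 10 proton handling and lactate sensing genes were called higher and 1 lower, beside 14.7% and 24.0% of all genes. Slc4a7, a bicarbonate transporter gene, was lower at 103 against 246 CPM (-1.49, SE 0.22), as were Slc16a4 (-1.46, SE 0.52) and Pdp1 (-2.11, SE 0.56). Gpt2, an alanine aminotransferase gene, had no UMI among 485922 in T/NK-like nuclei, where 3 UMIs would be 6.17 CPM, against 13.7 ± 1.84 CPM in tumor-like nuclei. Against macrophage-like nuclei, Car2 (3.52, SE 0.59), Car12 (3.70, SE 1.13) and the malic enzyme gene Me2 (0.94, SE 0.25) were called higher in T/NK-like nuclei. Car2 stood at 43.8 ± 40.6 against 4.43 ± 3.69 CPM, and Car12 at 10.4 ± 11.9 against 0.605 ± 0.975 CPM. In single T/NK-like sums 3 UMIs equal 25.7 to 82.1 CPM, so the Car12 call rests on very few UMIs. Slc16a10, an aromatic amino acid transporter gene, at 80.5 against 225 CPM (-1.80, SE 0.24), Gpr65 (-1.32, SE 0.47) and Slc16a6 (-1.25, SE 0.28) were called lower.

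Between KO and CO 0 of these list genes were called by edgeR in macrophage-like, tumor-like or T/NK-like nuclei. Among those with the smallest unadjusted p were Pdhx, a pyruvate dehydrogenase component gene, in macrophage-like nuclei, and Mpc2, a subunit gene of the mitochondrial pyruvate carrier, and Slc16a10 in tumor-like nuclei. Macrophage-like Pdhx averaged 33.3 CPM over the CO and 45.5 CPM over the KO libraries (log2 fold change 0.47, SE 0.24, adjusted p = 0.832). Tumor-like Mpc2 averaged 35.7 CPM over the CO and 25.3 CPM over the KO libraries (-0.43, SE 0.16, unadjusted p = 0.0328, adjusted p = 0.591), and Slc16a10 was 75.7 and 109 CPM (0.59, SE 0.23, adjusted p = 0.591). Of the T/NK-like values the smallest p were those of Hif1a (0.61, SE 0.50, adjusted p = 0.879) and Nptn (-0.20, SE 0.32, adjusted p = 0.948). The change in macrophage-like minus that in tumor-like nuclei was -0.47 for Slc16a10 (SE 0.17, adjusted p = 0.661) and 0.50 for Pdhx (SE 0.22, adjusted p = 0.740). Ldhc, a further lactate dehydrogenase gene known from testis, averaged 1.58 CPM over the CO and 0.513 CPM over the KO libraries in tumor-like nuclei, and over all kept nuclei its log2 fold change was -1.49 (SE 0.54, adjusted p = 0.672). Over all kept nuclei, 0 of 7 members and 0.0% of 13661 genes were called, with 12 genes (0.0878%) called by DESeq2 and 657 (4.81%) at an unadjusted p under 0.05.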

How the data were processed

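Nuclei of frozen tumors were profiled with 10x droplets in 3 CO and 3 KO libraries. The authors deposited UMI counts per gene and barcode as filtered matrices. Their processing notes name Cell Ranger 3.0.2 and Seurat 5.2.1 and the build GRCm38, while the matrix headers name 3.1.0. Ambient RNA correction was described for the study, and the deposited counts are whole numbers. Some samples were washed further, and which ones was not given in the sources used here.

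Nuclei with 100 to 7500 genes and under 20% mitochondrial UMIs were kept (18014), and 521 with the highest doublet scores were removed, at 0.8% per 1000 barcodes, since the automatic threshold marked 11 (0.0611%). A class needed 3 marker UMIs, 2 distinct markers and a share of at least 0.5 of the weighted marker rate. UMIs were summed per library and class and tested with edgeR 4.0.16 (R 4.3.3; TMM, quasi-likelihood, Benjamini-Hochberg over all genes passing a filter on low counts). Class contrasts used 1 fit with library as a block. Single values were compared by exact permutation tests (scipy 1.17.1), and clusters came from scanpy 1.11.5. On simulated counts with 1.5 on the log2 scale, 82% of changed genes were called in the macrophage-like and 93% in the tumor-like comparison. The simulated spread between libraries was smaller than the fitted 1 (biological coefficient of variation 25.9% in macrophage-like and 28.1% in tumor-like nuclei). These shares are therefore likely too high for these data. Alternatives included DESeq2 1.42.0, RLE factors, no filter, each library left out, a replicate block, clusters, stricter filters and thinning.

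The members and lists were chosen with earlier results of these data known. Named genes were the 7 members, the 3 genes most correlated with each, and of the other lists the called genes with the largest change, up to 4 in each direction, or the 2 with the smallest p where none was called. Some genes that this rule names are not reported here. Replicates were distinct (chi-square per degree of freedom of 8.31 or more). UMIs of the kept nuclei per library (7798029 to 16849597), and the smaller class sums, limit the precision of low levels.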

Additional observations from a re-analysis of the deposited data

How the results depend on the processing

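The higher Slc16a7 and Emb in macrophage-like than in tumor-like nuclei kept their call under every alternative run, with log2 fold changes of 5.03 to 6.01 and 3.13 to 3.49. Counts of called genes between KO and CO moved with DESeq2 to 9 (macrophage-like), 25 (tumor-like), 1 (T/NK-like) and 12 (all nuclei), without the filter on low counts to 2 (macrophage-like) and 35 (T/NK-like), and with thinned nuclei to 2 (T/NK-like). Leaving out 1 library gave 0 to 1846, 0 to 2218 and 0 to 78 calls, the upper ends without KO replicate 1. With clusters, T/NK-like nuclei gave 1858 calls against tumor-like and 4639 against macrophage-like nuclei, in place of 4478 and 2645. The test of a difference in change gave 3 calls with DESeq2, 96 without the filter, 0 with RLE factors, stricter filters, clusters or thinning, and 0 to 172 with 1 library left out. The cause was not tested.

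No member below was called where its direction turned. With thinned nuclei the log2 fold changes were 0.17 (macrophage-like) and 0.077 (tumor-like) for Slc16a1 and 0.033 (T/NK-like) for Bsg between KO and CO. Thinned class contrasts were -0.19 for Slc16a3 and -0.030 for Bsg (macrophage-like against tumor-like), -0.28 for Bsg and -0.26 for Ldha (T/NK-like against tumor-like), and -0.14 for Slc16a1 and -0.25 for Bsg (T/NK-like against macrophage-like). With clusters they were 0.16 for tumor-like Slc16a1 and 0.50 and 0.13 for T/NK-like Emb and Ldha between KO and CO, -0.22 and -0.21 for Bsg and Ldha (T/NK-like against tumor-like), and -0.28 for Bsg (T/NK-like against macrophage-like), and the tumor-like Ldhb share differed by 2.45 points. Macrophage-like Bsg was 0.0031 with RLE factors and 0.0063 without the filter. Ldha in T/NK-like against macrophage-like nuclei was 0.12 with RLE factors, 0.11 with DESeq2 and 0.083 without the library block. Slc16a3 in macrophage-like against tumor-like nuclei was -0.0095 with DESeq2, and Ldhb was 0.0046 without the library block. Stricter filters gave 0.013 for Slc16a1 (T/NK-like against tumor-like) and -0.0034 for Bsg (T/NK-like against macrophage-like).

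With 1 library left out, macrophage-like changes between KO and CO ran from -0.60 to 0.15 for Slc16a1, -0.45 to 0.81 for Slc16a3, -0.62 to 0.33 for Bsg, -0.091 to 0.78 for Emb and -0.63 to 0.057 for Ldha. Tumor-like changes ran from -0.67 to 0.23 for Slc16a3 and -0.26 to 0.74 for Emb, and T/NK-like ones from -0.14 to 0.024 for Emb and -0.36 to 0.021 for Ldha. Class contrasts ran from -0.10 to 0.24 for Slc16a3 and -0.094 to 0.16 for Ldhb (macrophage-like against tumor-like), -0.26 to 0.10 for Slc16a1 (T/NK-like against tumor-like) and -0.047 to 0.074 for Ldha (T/NK-like against macrophage-like). The Ldhb share differed by -3.71 to 2.67 points in tumor-like and -6.54 to 1.10 points in macrophage-like nuclei.

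Same-numbered CO and KO libraries deviated together for replicates 1 and 3 but not for replicate 2 (r = 0.469, 0.391 and -0.267 over genes, all nuclei). CO replicate 2 and KO replicate 1, of unlike number, gave 0.325. The numbers were not taken as pairs. The replicate block gave 0 calls in the KO against CO comparisons and changed no member's call. Endothelial-like nuclei, 3 to 11 per library, were not tested under the marker rule, only from clusters, and T/NK-like sums of 36541 to 116706 UMIs left Slc16a1, Slc16a3, Slc16a7 and Ldhb under the filter there.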

Other observations

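Nuclei of other marker classes, outside the 4, also carried these genes. The fibroblast or mural list includes Dkk2, which was also a leading gene of the unnamed cluster with mostly tumor markers. Whether tumor nuclei are among the nuclei of that class was not tested. The 184 fibroblast or mural nuclei, pooled over libraries, held 552 UMIs of Bsg (663 CPM, exact Poisson interval 609 to 721, counting error only), 296 of Ldha (356 CPM, 316 to 398), 51 of Ldhb (61.3 CPM, 45.6 to 80.6), 29 of Slc16a1 and 22 of Slc16a3. The 46 skeletal muscle nuclei held 31 UMIs of Ldha (349 CPM, 237 to 495) and 33 of Bsg (371 CPM, 256 to 521). Macrophage markers summed to 394 and 405 CPM in these nuclei. In the 1193 nuclei with mixed markers, Slc16a7 stood at 31.1 CPM (24.9 to 38.3), between the tumor-like and macrophage-like levels, beside 1799 CPM of macrophage markers.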
